A study of Mus musculus with 10 samples.

Results

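The 10 genes described here encode TGF-β ligands (Tgfb1, Tgfb2, Tgfb3), the activin subunit βA (Inhba) and a protein that binds latent TGF-β (Ltbp1). They also encode an activin antagonist (Fst), TGF-β receptors (Tgfbr1, Tgfbr2, Tgfbr3) and an intracellular inhibitor (Smad7). The rule that takes them goes by gene symbol and uses no measured value, although the list was drawn up with earlier results of these data known. All 10 were found among the 18384 genes listed in the mRNA-seq libraries. The cells were adipocyte precursors (APs) from the subcutaneous white adipose tissue of C57BL/6J mice. APs had been depleted of CD45- and CD31-positive cells on magnetic columns, then selected for SCA-1, and grown in DMEM F12 with 10% FBS. Control APs (n = 3 libraries) were cultured without IL-4, and IL-4–treated APs (n = 3 libraries) were cultured for 4 days with IL-4 added after seeding. The libraries are described as biological replicates, without saying whether they came from separate mice, so p-values measure the spread between these cultures. The libraries held 28526782 to 28674604 expected counts in control APs and 28914003 to 29057787 in IL-4–treated APs. Control replicate 3 and IL-4 replicate 6 stood apart from the other 2 libraries of their groups, and their effect is given where it changed a call.

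TGF-β is secreted as a latent complex in which the growth factor stays bound to its own propeptide, and latent TGF-β binding proteins tether this complex to the extracellular matrix. Free TGF-β is bound by the type II receptor TGFBR2, which recruits and phosphorylates the type I receptor TGFBR1. Activin A, a dimer of βA subunits, uses its own type I and type II receptors, and follistatin binds and neutralises it outside the cell. Both branches phosphorylate SMAD2 and SMAD3, which enter the nucleus with SMAD4, and SMAD7 is induced as a feedback inhibitor. In adipose tissue TGF-β is known for holding back adipogenesis and for the fibrotic programme of stromal cells, and activin A for its production by APs and its effect on their growth.

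Of the 10 genes, 5 were downregulated upon IL-4 stimulation (Fst, Ltbp1, Tgfb3, Inhba and Tgfbr1), 2 were upregulated (Tgfbr2 and Smad7) and 3 did not pass the test (Tgfb1, Tgfb2 and Tgfbr3). A gene was called at an adjusted p under 0.05, where p came from a quasi-likelihood F-test in edgeR and was adjusted by the Benjamini-Hochberg method over the 14009 genes tested. By the same rule 18.4% of all tested genes were lower and 19% were higher, against 5 and 2 of these 10. With a log2 fold change beyond 1 also required, Fst and Ltbp1 remained among the lower genes and no member among the higher ones, where 5.26% of all tested genes were lower and 5.77% higher. The median log2 fold change was -0.23 for the 10 genes and 0.003 for all genes tested. The direction of the 7 called genes was the same whether libraries were scaled by TMM, by DESeq2's size factors, by the upper quartile or by library totals.

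Sequences around an annotated start of 3 of the called genes are shown. Of the 6 members with windows taken from the RefSeq promoter table (GRCm38.p6), Tgfbr2 had the largest rise, and Ltbp1 and Inhba the largest falls. Each window runs from 250 bases before to 50 bases after an annotated start, 5′ to 3′ on the strand of the gene. Windows were taken for 6 of the 10 genes, and Tgfb3, Tgfbr3 and Fst were not in the table. Smad7 was left out of the selection, so whether the table holds a window for it was not examined. Capitals mark the letters CCAAT, on either strand, in Tgfbr2 and Ltbp1, and the letters TATAAA in Inhba.
Tgfbr2: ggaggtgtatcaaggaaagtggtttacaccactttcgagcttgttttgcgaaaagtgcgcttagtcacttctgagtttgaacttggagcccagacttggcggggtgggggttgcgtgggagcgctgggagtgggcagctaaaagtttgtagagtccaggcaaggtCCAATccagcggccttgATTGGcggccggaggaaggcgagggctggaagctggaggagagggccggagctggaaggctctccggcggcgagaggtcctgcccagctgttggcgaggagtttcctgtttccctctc
Inhba: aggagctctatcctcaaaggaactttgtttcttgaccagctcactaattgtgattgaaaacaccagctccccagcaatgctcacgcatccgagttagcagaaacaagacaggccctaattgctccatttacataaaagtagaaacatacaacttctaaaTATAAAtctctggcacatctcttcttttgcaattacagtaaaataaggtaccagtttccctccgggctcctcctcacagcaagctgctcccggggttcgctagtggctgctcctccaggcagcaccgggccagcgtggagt
Ltbp1: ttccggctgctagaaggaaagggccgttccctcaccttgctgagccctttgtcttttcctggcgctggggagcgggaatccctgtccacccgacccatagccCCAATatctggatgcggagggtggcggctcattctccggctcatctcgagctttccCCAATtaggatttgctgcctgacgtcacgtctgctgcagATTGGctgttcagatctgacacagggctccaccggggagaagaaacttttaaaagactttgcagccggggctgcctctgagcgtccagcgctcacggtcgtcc

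The Tgfbr2 window (chr9:116175314-116175613, minus strand) held CCAAT at -85 and, on the other strand, at -68. The Inhba window (chr13:16011601-16011900, plus strand) held TATAAA at -91, and its start lies inside the annotated span of the gene, downstream of the first base of that span. The Ltbp1 window (chr17:75005279-75005578, plus strand) belongs to the upstream of 2 starts in the table. This start also lies inside the annotated span of the gene. The window held CCAAT at -148 and -92 and, on the other strand, at -53. Positions are those of the first base of a match counted from the start. Both strands were searched for 6 motifs in the 8 windows of the 6 genes and in all 32851 windows of the table. The 8 windows hold none of Smad7, Tgfb3, Tgfbr3 or Fst, so their motif counts do not cover these genes. The STAT6 motif TTCNNNNGAA was in 0 of the 8 windows and in 6.95% of all windows, the STAT motif TTCNNNGAA in 0 and 8.3%, the SMAD palindrome GTCTAGAC in 0 and 0.213%, and the AP-1 motif TGANTCA in 0 and 7.81%. TATAAA was found in the windows of Inhba and Tgfb2 and in 13.6% of all windows. CCAAT was found in 5 of the 8 windows (Ltbp1, Tgfb2, Tgfbr2 and both of Tgfbr1) and in 37.4% of all windows.

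Among the ligands, Tgfb3 and Inhba fell and Tgfb1 did not pass the test. Counts are given as TMM-normalized counts, which are expected counts brought to a common effective library size. Tgfb3 (Entrez gene 21809, chromosome 12 from 86056743 to 86079041 of GRCm38), the TGF-β isoform studied mainly in palate and lung development, had 2800, 2925 and 2762 normalized counts in control APs, against 1657, 1631 and 1546 in IL-4–treated APs. Every IL-4 library lay below every control library, and the libraries of a group were close to each other. Its mean fell from 2829 ± 85.2 to 1611 ± 58.4 (SD, n = 3), or by 0.81 on the log2 scale (SE 0.06, adjusted p = 2.05e-05, edgeR).

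Inhba (Entrez gene 16323, chromosome 13 from 16004256 to 16031609), which encodes the βA subunit of activin A, had 1095, 1056 and 981 normalized counts in control APs and 636, 580 and 649 in IL-4–treated APs. The groups did not overlap. The mean fell from 1044 ± 57.8 to 622 ± 36.9 (SD, n = 3), a log2 fold change of -0.75 (SE 0.08, adjusted p = 0.000137, edgeR).

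Tgfb1 (Entrez gene 21803, chromosome 7 from 25687002 to 25705077), the most widely expressed TGF-β isoform, had 5277, 5110 and 5580 normalized counts in control APs and 4602, 4541 and 5143 in IL-4–treated APs. IL-4 replicate 6 reached into the range of the controls, and the other 2 IL-4 libraries lay below it. The log2 fold change was -0.16 (SE 0.07) and did not pass the test (adjusted p = 0.109, edgeR). Without IL-4 replicate 6 it was -0.21 with an adjusted p of 0.00957, so 1 library decided this call. Tgfb2 (Entrez gene 21808, chromosome 1 from 186622787 to 186709697) had 482, 424 and 413 normalized counts in control APs and 437, 415 and 341 in IL-4–treated APs, and the groups overlapped. Its log2 fold change of -0.15 (95% CI -0.41 to 0.12, adjusted p = 0.357, edgeR) leaves room for a fall of up to 0.41 on the log2 scale.

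The mRNAs of both proteins that hold ligands outside the cell fell. Fst (Entrez gene 14313, chromosome 13 from 114452262 to 114458989), which encodes the activin-binding protein follistatin, had the largest fall of the 10 genes. It had 946, 947 and 975 normalized counts in control APs and 323, 304 and 286 in IL-4–treated APs. The lowest control library was far above the highest IL-4 library. The mean fell from 956 ± 16.3 to 304 ± 18.6 (SD, n = 3), a log2 fold change of -1.65 (SE 0.07, adjusted p = 1.43e-06, edgeR), to 0.319 of the control level.

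Ltbp1 (Entrez gene 268977, chromosome 17 from 75005480 to 75392512), which encodes latent TGF-β binding protein 1, had 317, 357 and 371 normalized counts in control APs and 169, 192 and 146 in IL-4–treated APs. The groups did not overlap, and this was the least abundant of the 10 genes per transcript length, at 1.78 ± 0.165 FPKM in control APs and 0.747 ± 0.0987 with IL-4 (SD, n = 3). Its log2 fold change was -1.04 (SE 0.12, adjusted p = 0.000314, edgeR), and leaving out single libraries moved it between -1.14 and -0.94.

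Tgfbr2 was the only receptor gene of the set that rose. Tgfbr2 (Entrez gene 21813, chromosome 9 from 116087695 to 116175363), which encodes the ligand-binding type II receptor, had 18109, 18821 and 17975 normalized counts in control APs and 35848, 35645 and 29354 in IL-4–treated APs. Every IL-4 library was above every control library, and IL-4 replicate 6 was the lowest of its group. The mean rose from 18302 ± 454 to 33616 ± 3692 (SD, n = 3), 1.84-fold or a log2 fold change of 0.88 (SE 0.09, adjusted p = 0.000127, edgeR).

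Tgfbr1 (Entrez gene 21812, chromosome 4 from 47353222 to 47414926), which encodes the type I receptor kinase, had 3380, 3671 and 3175 normalized counts in control APs and 2933, 2880 and 2505 in IL-4–treated APs. The groups did not overlap, but the gap between the lowest control and the highest IL-4 library was smaller than the range within either group. The log2 fold change was -0.30 (SE 0.08, adjusted p = 0.0238, edgeR). The call was lost without control replicate 1 (adjusted p = 0.0724), control replicate 2 (0.0948) or IL-4 replicate 5 (0.052), with log2 fold changes of -0.31, -0.24 and -0.32.

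Tgfbr3 (Entrez gene 21814, chromosome 5 from 107106567 to 107289629), which encodes the co-receptor betaglycan, had 7396, 7528 and 6871 normalized counts in control APs and 7520, 7196 and 5815 in IL-4–treated APs. The groups overlapped, and the lowest value was again that of IL-4 replicate 6. The log2 fold change was -0.09 (95% CI -0.32 to 0.14, adjusted p = 0.538, edgeR) and 0.02 without that library.

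Smad7 (Entrez gene 17131, chromosome 18 from 75367365 to 75395935), which encodes the inhibitory SMAD, had 760, 709 and 729 normalized counts in control APs and 915, 966 and 982 in IL-4–treated APs. The groups did not overlap. The mean rose from 733 ± 25.9 to 954 ± 35.1 (SD, n = 3), a log2 fold change of 0.38 (SE 0.06, adjusted p = 0.00227, edgeR). On this scale 2 of the 10 genes had every IL-4 library above every control library and 5 had every IL-4 library below, where 25.2% and 25.3% of all tested genes did so.

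**Figure D1:**
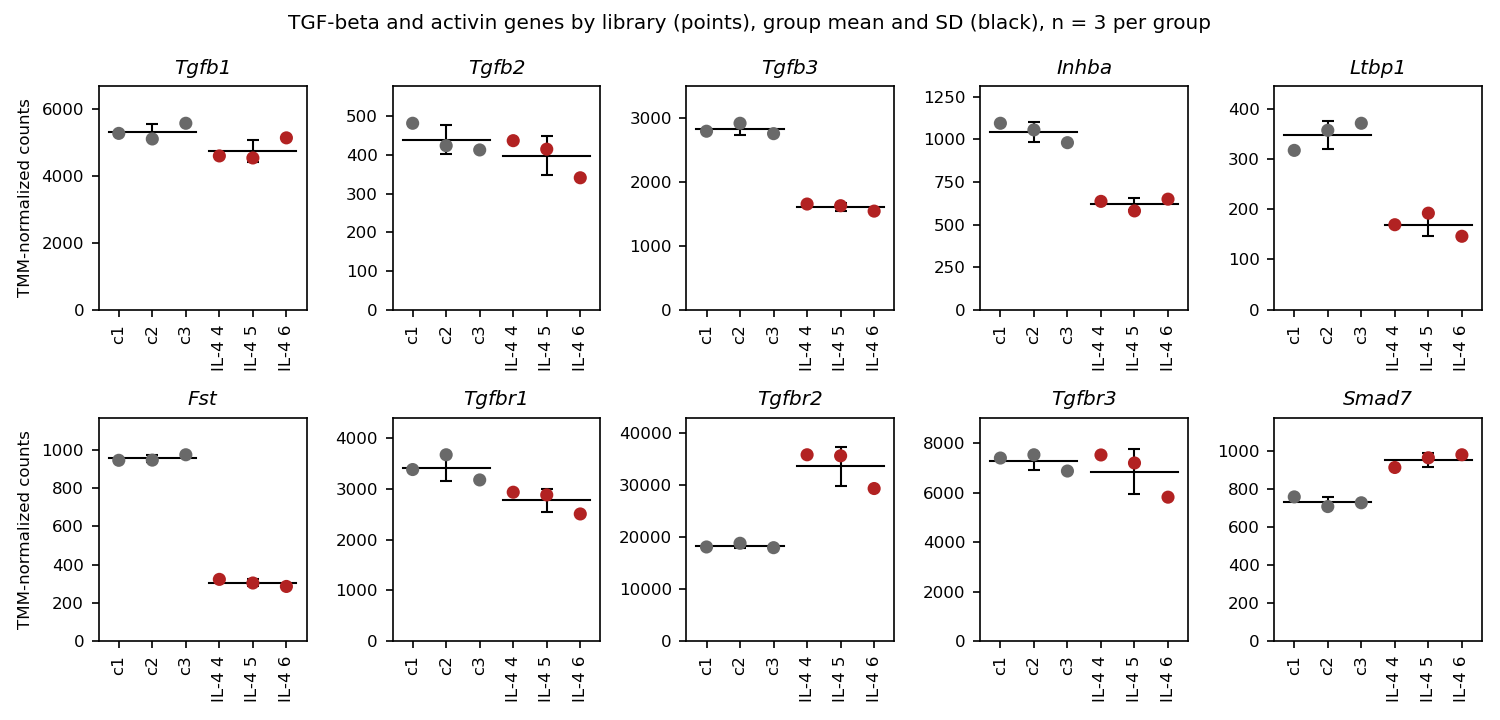
TMM-normalized counts of each of the 10 genes (vertical axis from 0, a separate scale for each gene) in control replicates 1 to 3 (grey) and IL-4 replicates 4 to 6 (red), with the group mean and SD in black. The libraries of the groups are separate for 7 genes and overlap for Tgfb1, Tgfb2 and Tgfbr3, and IL-4 replicate 6 is the lowest of its group for 7 of the 10 genes.

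The scale on which libraries are compared bore on the 3 genes without a call. A few abundant genes weighed more with IL-4, since the top 10 held 9.14% to 9.59% of a control library and 13.8% to 15.5% of an IL-4 library. Scaling by library totals, which FPKM also does, moved the median log2 fold change of all tested genes to -0.17. On that scale Tgfb1 (-0.33, adjusted p = 0.00901), Tgfb2 (-0.32, adjusted p = 0.0394) and Tgfbr3 (-0.26, adjusted p = 0.0432) were also called lower by edgeR, which gives 8 lower genes in place of 5. By the same rule and scale 35.4% of all tested genes were lower, against 18.4% with TMM, and 12.2% were higher. Tgfbr2 (0.70) and Smad7 (0.21, adjusted p = 0.0389) stayed higher, and Smad7 did not pass in limma's test on log2(FPKM + 1) without a filter (adjusted p = 0.0639).

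**Figure D2:**
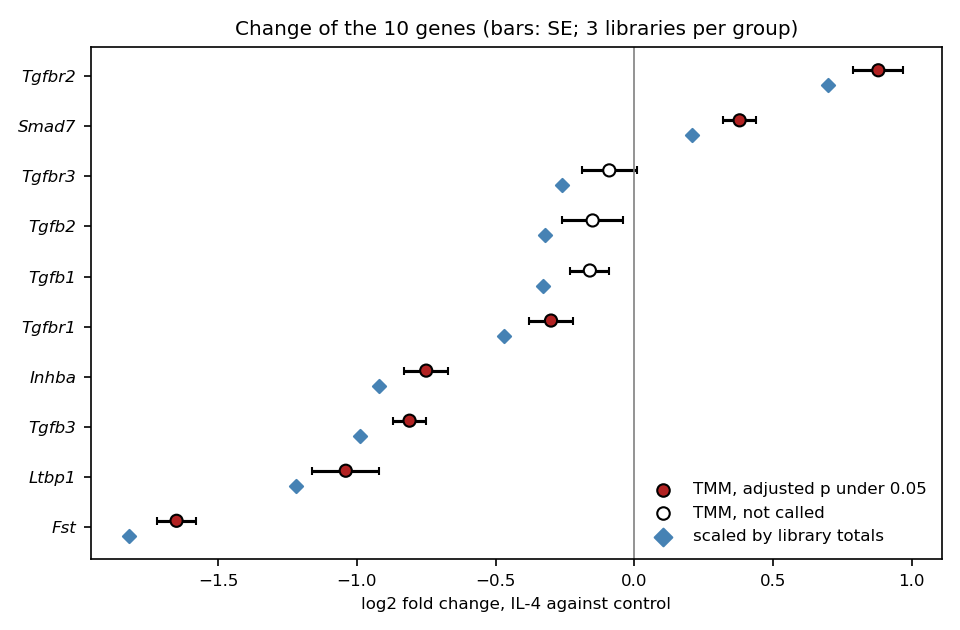
Log2 fold change of IL-4 against control for the 10 genes (horizontal axis) with TMM scaling (circles with SE, filled where the adjusted p is under 0.05) and with scaling by library totals (blue diamonds). The diamonds lie to the left of the circles for every gene, from Fst at -1.65 with TMM to Tgfbr2 at 0.88.

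Levels of different genes were compared per transcript length, in FPKM. In control APs the order was Tgfbr2 (144 ± 2.50), Tgfb1 (92.3 ± 4.95), Tgfbr3 (44.5 ± 1.75), Tgfb3 (31.2 ± 0.690), Inhba (26.3 ± 1.33), Tgfbr1 (22.0 ± 1.41), Fst (13.6 ± 0.341), Smad7 (6.17 ± 0.236), Tgfb2 (3.20 ± 0.269) and Ltbp1 (SD, n = 3). No neighbours in this order overlapped between libraries. In IL-4–treated APs Tgfbr2 reached 234 ± 21.8 and Tgfb1 73.2 ± 6.35, followed by Tgfbr3 at 37.1 ± 4.34 (SD, n = 3). Tgfbr1 (15.9 ± 1.06), Tgfb3 (15.8 ± 0.323) and Inhba (13.9 ± 0.992) came next in FPKM (SD, n = 3), and the ranges of Tgfbr1 and Tgfb3 overlapped, as did those of Tgfbr1 and Inhba. Smad7 at 7.12 ± 0.355 FPKM then stood above Fst at 3.86 ± 0.164 (SD, n = 3), the reverse of their order in control APs, and Tgfb2 (2.56 ± 0.282) and Ltbp1 remained the lowest.

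Shares within a library do not depend on how libraries are scaled. Among the 3 TGF-β ligands, Tgfb1 made up 72.7%, 71.5% and 74.3% of the summed FPKM in control APs and 78.8%, 78.9% and 82% in IL-4–treated APs. Tgfb3 made up 24.5%, 26% and 23.4% in control APs and 18.1%, 18.1% and 15.7% in IL-4–treated APs. The groups did not overlap for either gene, with mean differences of 7.11 and -7.40 percentage points (exact permutation test, two-sided, p = 0.1 for each, the smallest p that 3 against 3 libraries can give). Tgfb2 stayed the minor ligand, with 2.53% ± 0.244 in control APs against 2.81% ± 0.462 with IL-4 (SD, n = 3, exact permutation p = 0.4). The summed FPKM of the 3 ligands was 127 ± 4.32 in control APs against 91.6 ± 5.80 with IL-4 (SD, n = 3). This sum, unlike the shares, depends on how libraries are scaled. Most of it was Tgfb1, which was not called with TMM.

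Among the 3 receptors, Tgfbr2 made up 67.9%, 67.9% and 69.3% of the summed FPKM in control APs and 81.2%, 81.7% and 81.7% in IL-4–treated APs. Tgfbr1 made up 10.4%, 10.9% and 10.1% in control APs and 5.47%, 5.43% and 5.74% in IL-4–treated APs. Tgfbr3 went from 21.2% ± 0.498 to 12.9% ± 0.348 (SD, n = 3). None of these groups overlapped (exact permutation test, two-sided, p = 0.1 for each, the smallest possible). The ratio of Tgfbr2 to Tgfbr1 was 6.52, 6.24 and 6.89 in control libraries and 14.9, 15 and 14.2 in IL-4 libraries. The summed FPKM of the receptors was 210 ± 5.14 in control APs against 287 ± 27.1 with IL-4 (SD, n = 3). On the FPKM scale the ligand and the receptor sums thus differed in opposite directions, and of the 3 receptor genes only Tgfbr2 rose.

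**Figure D3:**
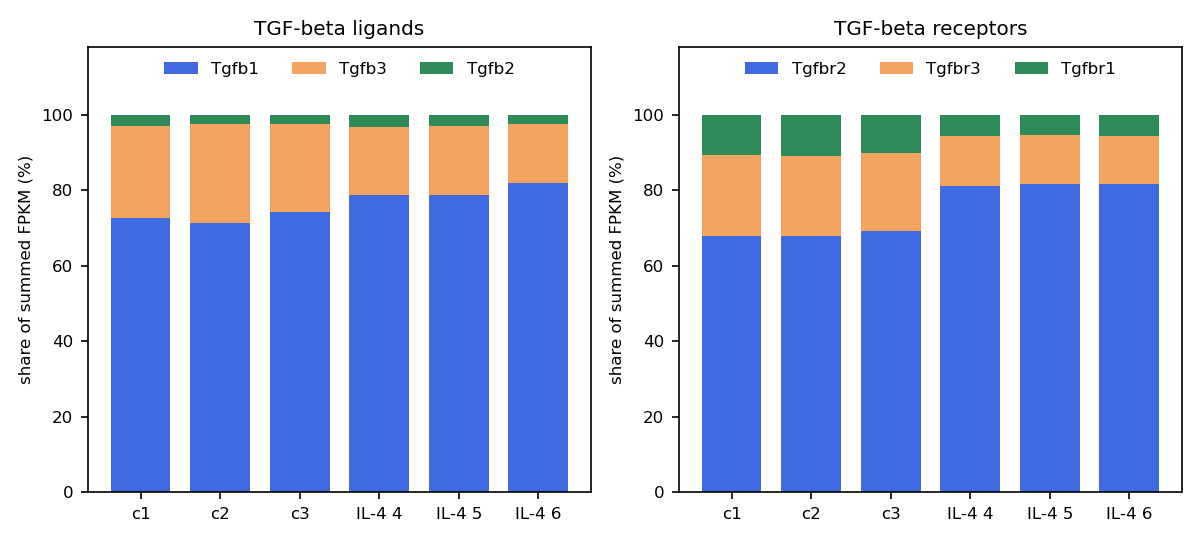
Share of each gene (vertical axis, percent) in the summed FPKM of the TGF-β ligands (left) and receptors (right) in each of the 6 libraries. Tgfb1 is at 71.5% to 74.3% in controls and 78.8% to 82% with IL-4, and Tgfbr2 at 67.9% to 69.3% and 81.2% to 81.7%.

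The activin subunit gene Inhba and the antagonist gene Fst both fell, but not in proportion. Their ratio covers no other gene whose product binds activin. The FPKM of Inhba was 2.06, 1.97 and 1.78 times that of Fst in control libraries and 3.48, 3.36 and 3.97 times that of Fst in IL-4 libraries. On the log2 scale the ratio was 0.952 ± 0.106 in control APs against 1.85 ± 0.128 with IL-4 (SD, n = 3), a difference of 0.894 without overlap (exact permutation test, two-sided, p = 0.1, the smallest possible). Over the 7 permutation tests of shares and of this ratio, Benjamini-Hochberg adjustment gave 0.117 for those at the smallest p and 0.4 for the share of Tgfb2. The other activin subunit went the other way. Inhbb, which encodes βB, rose from 1721 ± 98.2 to 2705 ± 84.8 normalized counts (SD, n = 3, log2 fold change 0.65, adjusted p = 0.000113, edgeR), and its FPKM was 0.575 ± 0.0343 times that of Inhba in control APs against 1.52 ± 0.137 times with IL-4 (SD, n = 3).

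A list of 72 other genes of the TGF-β and activin pathway was examined by role. In the files 70 of them were listed and 60 had enough counts for the test, of which 14 were higher, 19 were lower and 27 did not pass. These counts, and those of each role, stand beside the 19% of all tested genes that were higher and the 18.4% that were lower. Their median log2 fold change was -0.08. A rise or fall beyond 1 on the log2 scale was called for 6 and 10 of them, against 5.77% and 5.26% of all tested genes. Scaling by library totals gave 12 higher and 33 lower, on a scale where 12.2% and 35.4% of all tested genes were called.

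Of the 4 other ligand genes tested, 3 rose and none fell (median log2 fold change 0.60). Besides Inhbb, Inha, which encodes the inhibin α subunit, rose from 101 ± 19.3 to 148 ± 20.1 normalized counts (SD, n = 3, log2 fold change 0.55, adjusted p = 0.0361, edgeR). Its call was lost without control replicate 1 (0.61, adjusted p = 0.0707), control replicate 2 (0.40, 0.102), IL-4 replicate 5 (0.59, 0.0709) or IL-4 replicate 6 (0.44, 0.0583), with upper-quartile scaling (0.53, 0.0544) and with library totals (0.38, 0.117). The genes of latency and activation gave 1 rise and 4 falls among 12 tested (median -0.20). Ltbp2, a matrix protein related to Ltbp1 that does not bind latent TGF-β, fell by 2.04 on the log2 scale (SE 0.12), with reads partly shared with other genes in all 6 libraries. Thbs1, which encodes the TGF-β activator thrombospondin 1, had 175084, 193705 and 154136 normalized counts in control APs and 91726, 92134 and 62714 in IL-4–treated APs, a log2 fold change of -1.08 (SE 0.16, adjusted p = 0.001, edgeR). Itgav, which encodes the integrin αV chain, fell by 0.49 (adjusted p = 0.0447, edgeR). Fbn1, which encodes the microfibril protein fibrillin 1, rose by 0.72 (adjusted p = 0.019, edgeR).

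The calls of Itgav and Fbn1 depended on single libraries, and that of Fbn1 also on the test. Itgav had adjusted p values of 0.129, 0.142 and 0.0637 without control replicate 1, control replicate 2 and IL-4 replicate 5. Fbn1 had adjusted p values of 0.0644, 0.066, 0.0531 and 0.0624 without control replicates 1 and 3 and IL-4 replicates 4 and 5, and of 0.0545, 0.0556 and 0.091 in the 3 limma fits on FPKM.

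Among genes whose products bind ligands, 2 of 5 rose and none fell (median 0.42). Chrdl1, which encodes the BMP antagonist chordin-like 1, had 137, 150 and 130 normalized counts in control APs and 1867, 1847 and 1632 in IL-4–treated APs, 12.8-fold higher (log2 fold change 3.68, SE 0.09, adjusted p = 1.18e-07, edgeR). Dcn, which encodes the proteoglycan decorin, rose by 0.73 on the log2 scale (SE 0.06, adjusted p = 4.69e-05, edgeR).

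None of the 5 other receptor genes tested passed (median -0.04). The activin type I receptor gene Acvr1b had a log2 fold change of -0.05 (95% CI -0.32 to 0.22), and the type II receptor genes Acvr2a and Acvr2b had -0.04 (-0.22 to 0.14) and 0.13 (-0.37 to 0.62). Part of the reads of Acvr2a were shared with other genes in 5 libraries, and Acvr1c, with a mean of 0.0133 FPKM in IL-4–treated APs and no read in control APs, had too few counts for the test. Of the 5 SMAD genes and partners tested, 1 fell and none rose (median -0.16). Smad3 had 2214, 2501 and 2084 normalized counts in control APs and 1579, 1565 and 1276 in IL-4–treated APs, a log2 fold change of -0.62 (SE 0.10, adjusted p = 0.00206, edgeR). The other receptor-regulated SMAD gene, Smad2, had -0.16 (95% CI -0.35 to 0.02), and the common partner Smad4 had 0.01 (-0.18 to 0.21). With library totals, Acvr2a (-0.22, adjusted p = 0.036) and Smad2 (-0.34, adjusted p = 0.00629) were also called lower by edgeR.

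Among 11 feedback genes and repressors, 2 rose and 4 fell (median -0.16). Smurf1, which encodes a ubiquitin ligase that acts on receptors together with SMAD7, rose from 2660 ± 243 to 4660 ± 556 normalized counts (SD, n = 3), a log2 fold change of 0.81 (adjusted p = 0.00052, edgeR). Bambi, which encodes a decoy receptor, rose by 0.51 (adjusted p = 0.00536, edgeR), and did not pass in limma on filtered FPKM (adjusted p = 0.0593 and 0.0642 with pseudocounts of 1 and 0.1). Nedd4l (-0.57), Tgif2 (-0.55, with reads shared with other genes) and Skil (-0.41), a ubiquitin ligase gene and a pair of SMAD co-repressor genes, fell on the log2 scale. Skil lost its call without control replicate 1 (adjusted p = 0.0675) or control replicate 2 (adjusted p = 0.0993).

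The 18 genes known as targets of TGF-β in fibroblasts changed in both directions, with 6 higher, 10 lower and 2 without a call (median log2 fold change -0.76), beside 19% and 18.4% of all tested genes. Cnn1, which encodes the contractile protein calponin 1, had the largest fall, from 1589 ± 84.5 to 403 ± 37.4 normalized counts (SD, n = 3, log2 fold change -1.98, adjusted p = 1.42e-06, edgeR). Eln, which encodes elastin, fell by 1.78 on the log2 scale. The matrix genes Postn (periostin), Col3a1 (collagen III) and Lox (lysyl oxidase) rose by 1.84, 1.37 and 1.30 on the log2 scale. Postn had 221709, 227475 and 226169 normalized counts in control APs and 824053, 815457 and 773183 in IL-4–treated APs, with no overlap between the groups.

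**Figure D4:**
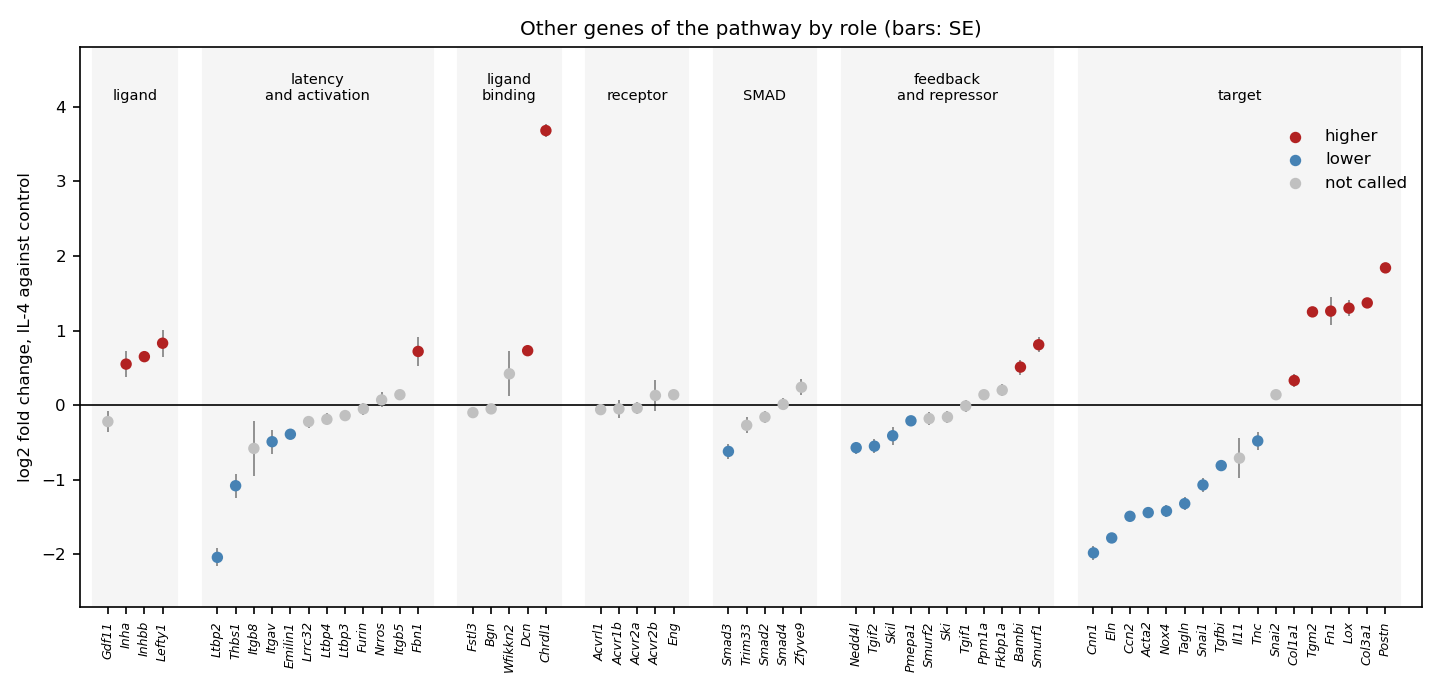
Log2 fold change of IL-4 against control (vertical axis) for the other pathway genes tested, grouped by role, with 1 target gene not shown, with SEs as bars and colours for higher (red), lower (blue) and not called (grey). The target genes shown spread from -1.98 (Cnn1) to 1.84 (Postn), and none of the 5 receptor genes is called.

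The libraries also differed in markers of other cell types, and fewer cells of a type and less RNA per cell cannot be told apart in bulk samples. Of the 7 markers of APs, all were detected, 3 were higher and 2 were lower with IL-4. Their summed level was 355 to 393 FPKM in control APs against 436 to 482 FPKM with IL-4. The largest parts of this sum, Ly6a and Pdgfrb (named after their values were seen), went in opposite directions. Ly6a had 108 to 131 FPKM in control APs against 217 to 291 FPKM with IL-4, and Pdgfrb 173 to 200 against 96.4 to 112 FPKM. Of the 10 macrophage markers, 8 were lower and 1 (Mrc1, named after its value was seen) was higher with IL-4, and their summed level was 3074 to 3939 FPKM in control APs against 1208 to 1546 FPKM with IL-4, in cells that had been depleted of CD45-positive cells. Lyz2 alone (named after its values were seen) held 2469 to 3225 FPKM of this in control APs against 673 to 937 FPKM with IL-4. The other 9 macrophage markers summed to 576 to 714 FPKM in control APs against 535 to 609 FPKM with IL-4, and these ranges overlapped. The largest part of this sum was Cd68 (named after its values were seen), which was not called. It had 218 to 293 FPKM in control APs against 254 to 344 FPKM with IL-4. The overlap of the sums therefore does not mean that the single markers were unchanged, since 8 of the 10 were lower. Control replicate 3 and IL-4 replicate 6 had the highest macrophage sum of their groups. Control replicate 3 had the highest count of its group in 3 of the 10 members and the lowest in 6. For IL-4 replicate 6 these numbers were 3 and 7. All 4 mural cell markers were lower, with sums of 20.8 to 23 FPKM in control APs against 6.2 to 7.3 FPKM with IL-4, and mural cells also express Cnn1. Endothelial markers summed to 11.1 to 11.6 FPKM in control APs against 8.51 to 9.77 FPKM with IL-4, with 2 of 5 lower and 1 higher.

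Markers of lymphocytes were at or near 0, with Cd3e and Cd3g without a read in any library. The 5 markers of mature adipocytes summed to 32.8 to 38.8 FPKM in control APs against 55 to 78.6 FPKM with IL-4. Nearly all of this was Fabp4, the only one of them with enough counts for the test, and Lep and Cidec had no read in any library. The part of macrophage, mural or endothelial RNA in the differences of the TGF-β and activin genes was not tested.

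**Figure D5:**
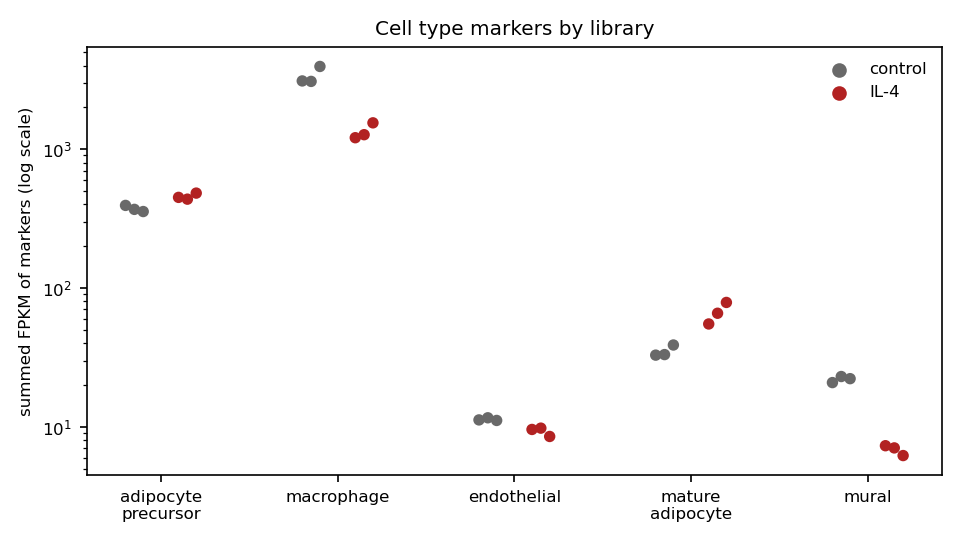
Summed FPKM of the markers of each cell type (vertical axis, log scale) in the 3 control (grey) and 3 IL-4 (red) libraries. The macrophage sum lies at 3074 to 3939 in controls and 1208 to 1546 with IL-4, but without Lyz2 it lies at 576 to 714 and 535 to 609. Of the 10 macrophage markers, 8 were lower and 1 was higher with IL-4. The mural sum lies at 20.8 to 23 and 6.2 to 7.3.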

How the data were processed

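mRNA-seq of 6 AP cultures (3 control, 3 IL-4, day 4) was used, and small RNA libraries were not used here. Per the paper's methods, the authors filtered reads with SOAPnuke and quantified them with Bowtie2 and RSEM. The deposited files give the authors' RSEM expected counts per gene without normalization. They also give FPKM values that the authors corrected for transcript length and sequencing depth. The strand setting of the counting is not given in the sources used here, and Fst, Smad7 and Tgfbr1 overlap predicted genes on the opposite strand. A gene not listed in a library was taken as 0. In all, 1 row without a gene name (0.00016% of counts) was removed, and 26 date-like symbols were resolved by Entrez number. The expected counts of the 10 members were whole numbers in every library.

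After rounding, genes were kept by filterByExpr (minimum count 10 and minimum total 15), and the quasi-likelihood test of edgeR 4.0.16 (R 4.3.3) was run with TMM factors of 0.9321 to 1.072 and no covariates. The biological coefficient of variation was 0.0939, and Ltbp1, the member with the fewest reads, was counted over 100 times in each library. Shares and ratios of FPKM were compared with exact permutation tests in scipy 1.17.1. Alternatives were DESeq2 1.42.0, upper-quartile scaling, library totals, a fit without the count filter, limma 3.58.1 applied to FPKM (pseudocount 1 or 0.1, mean FPKM of at least 0.5, and pseudocount 1 for all genes), and each library left out in turn. Counts of all replicate pairs differed by more than sampling noise (dispersion index 2.52 to 48.8).

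The members, the list of other pathway genes and the markers were chosen with earlier results of these data known. Named are all members, the activin receptors and Smad2 to Smad4, and in each role up to 3 genes with the largest rise and 3 with the largest fall among called genes with a mean of at least 100 normalized counts. Of these, 1 target gene is counted but not reported here. Gene positions, overlaps and promoters come from RefSeq on GRCm38, the assembly of mm10.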

Additional observations from a re-analysis of the deposited data

How the results depend on the processing

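The log2 fold changes of the 10 members and 25 other named genes were recomputed under 13 alternatives, and 392 values kept their direction and their side of the threshold, 27 lost a call, 19 gained one and 15 changed direction. No paired analysis was possible because the control and IL-4 mRNA libraries share no replicate number. Members called higher numbered 1 in limma on all genes and 0 with a log2 fold change beyond 1, in place of 2. Members called lower numbered 8 with library totals and with limma on either filtered FPKM scale, and 2 beyond 1, in place of 5. In these fits 35.4%, 36.3% and 36.1% of all tested genes were lower, against 18.4% with TMM. Other pathway genes called higher numbered 6 beyond 1 in place of 14. Those called lower numbered 33 with library totals, 32 with limma on either filtered FPKM scale, 31 with limma on all genes and 10 beyond 1, in place of 19, and 25.6% of all genes were lower in limma on all genes.

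With each library left out in turn, 2 members stayed higher and 4 to 6 were lower. Of the other pathway genes, 11 to 17 were higher and 16 to 20 lower. In these fits 14.2% to 22.6% of all tested genes were higher and 13.5% to 21.3% lower. The counts of 6 lower members and 17 higher other genes came without IL-4 replicate 6. That fit also had the largest shares of all tested genes, 22.6% higher and 21.3% lower. The share differences lay between 6.06 and 7.85 percentage points for Tgfb1, 0.125 and 0.549 for Tgfb2, -8.02 and -6.61 for Tgfb3, -5.10 and -4.69 for Tgfbr1, 12.9 and 13.6 for Tgfbr2, and -8.50 and -8.00 for Tgfbr3, and the difference in the log2 ratio of Inhba to Fst between 0.822 and 0.943. With expected counts in place of FPKM, the share differences were 8.34 (Tgfb1), 0.77 (Tgfb2), -9.11 (Tgfb3), -5.33 (Tgfbr1), 14.6 (Tgfbr2) and -9.26 (Tgfbr3). Longer transcripts weigh more in expected counts. The difference in the log2 ratio of Inhba to Fst was then 0.904.

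The direction changed for genes with log2 fold changes near 0, none of them called by edgeR with TMM scaling. With library totals, Tgfbr3 (-0.26, adjusted p = 0.0432) and Acvr2a (-0.22, adjusted p = 0.036) were called lower by edgeR. With each library left out, Tgfbr3 lay between -0.15 and 0.02, Acvr1b between -0.14 and 0.08, Acvr2a between -0.09 and 0.03, Acvr2b between -0.03 and 0.35 and Smad4 between -0.03 and 0.10. The highest value came without IL-4 replicate 6 for all 5. Acvr2b was at -0.05 with library totals and -0.01 with limma on all genes, and Smad4 at -0.01 with upper-quartile scaling and -0.16 with library totals and all 3 limma fits. The causes of these changes were not tested.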
